A study of Mus musculus with 10 samples.

Results

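Cytosolic ribosomal protein genes encode the protein part of the 2 subunits of the ribosome that works in the cytosol. They were taken by gene symbol, as Rpl, Rplp or Rps followed by a number (with the paralogue endings that such symbols carry) or Rpsa, which gave 85 of the 25233 genes with a symbol in the table, 53 of the large subunit and 32 of the small subunit. Genes named as pseudogenes and the kinases whose symbols begin with Rps6k were left out.

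Each ribosome holds 1 copy of nearly every ribosomal protein, and only the P-stalk of the large subunit, which recruits elongation factors, holds several copies of Rplp1 and Rplp2 on a scaffold of Rplp0. Cells therefore make most ribosomal proteins in matched amounts. Many of these mRNAs start with a run of pyrimidines, the 5′ terminal oligopyrimidine tract, through which growth signals that pass through the mTOR kinase set their translation rather than their amount. A small number of members have a paralogue, a second gene for a protein of the same position in the ribosome, and several such genes are known from 1 tissue only, such as testis or striated muscle. All mouse ribosomal protein genes also left processed copies in the genome, so that reads from them can fit more than 1 place.

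The study compared 5 RNA-seq libraries of hypertrophied hepatic stellate cells (hypHSCs) with 5 of quiescent hepatic stellate cells (qHSCs) from C57BL/6J mice. HypHSCs came from mice on a choline-deficient, L-amino acid-defined, high-fat diet (CDAHFD), fed for 13 weeks (hypHSC 1 and 2, aged 19 weeks) or 12 weeks (hypHSC 3, 4 and 5, aged 18 weeks). QHSCs were from animals given standard diet, qHSC 1, 2 and 5 at 36 weeks and qHSC 3 and 4 at 34 weeks of age. Both were sorted by their natural fluorescence, hypHSCs through a gate that includes green light and qHSCs through a blue gate, after liver digestions of different strength. Diet, age, digestion and gate thus changed together and cannot be told apart. The hypHSC preparations were chosen by RNA quality among more samples than mice, so libraries may share a mouse, and p-values measure the spread between preparations.

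Depth, as reads on genes with a symbol, ran from 30534719 to 43283589 among hypHSCs and from 35640104 to 47317028 among qHSCs. The marker genes of the 2 groups stood far apart. All 8 hepatic stellate cell markers were lower in hypHSCs, with summed normalized counts of 21818 to 51561 against 914983 to 1319266, although none was absent from a hypHSC library (Lrat, the retinol-esterifying enzyme, at 1873, 476, 1365, 2312 and 1936). All 11 macrophage markers were called higher, with sums of 1158726 to 1632520.3 against 5757 to 125665. In Csf1r, Adgre1, C1qa and C1qb the groups overlapped, with hypHSC 5 below qHSC 4. Both the 4 proliferation markers, which summed to 2218 to 3599 against 383 to 671, and the reads on mitochondrial entries, which took 2.21% to 12.8% against 1.25% to 1.61%, moved with the groups too. None of the 7 hepatocyte markers was called (sums of 11282 to 160261 against 32260 to 88588). Of the 5 endothelial markers, Stab2 was higher and Clec4g lower, and the 4 T and B cell markers summed to 141 at most in hypHSCs and 76.9 in qHSCs. Each fold change below is therefore a difference between sorted preparations that also differ in these markers, and their part in it was not tested. In such bulk samples fewer cells of a type and less RNA per cell cannot be told apart.

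Sequences of 3 pairs of paralogues are shown because the results turn on them and because they show how far reads of 59 bases can tell such genes apart. The lines give 90 bases of each coding sequence from the GENCODE annotation of the GRCm39 mouse genome, aligned without gaps, with the bases that differ between the 2 genes of a pair in capitals. For Rps27l (chr9:66853368-66856804, plus strand) and Rps27 (chr3:90119976-90120958, minus strand) these are coding bases 1 to 90, with 24 differences, and the whole coding sequences were 76.2% identical.
Rps27l: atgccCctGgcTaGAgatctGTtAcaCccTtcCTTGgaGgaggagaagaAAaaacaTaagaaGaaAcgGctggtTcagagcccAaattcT
Rps27: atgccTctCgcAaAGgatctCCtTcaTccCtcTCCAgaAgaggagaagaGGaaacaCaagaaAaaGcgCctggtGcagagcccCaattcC
For Rps4l (chr6:148256153-148257096, plus strand) and Rps4x (chrX:101228547-101232997, minus strand), coding bases 1 to 90 held 15 differences, with 79.7% identity over the whole coding sequence.
Rps4l: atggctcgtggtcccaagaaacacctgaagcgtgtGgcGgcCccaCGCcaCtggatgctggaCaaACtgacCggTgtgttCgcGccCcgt
Rps4x: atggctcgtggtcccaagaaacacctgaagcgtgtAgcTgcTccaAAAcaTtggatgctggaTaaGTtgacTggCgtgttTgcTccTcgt
For Rpl22l1 (chr3:28859585-28861573, plus strand) from coding base 19 to 108 and Rpl22 (chr4:152408893-152418539, plus strand) from 37 to 126, 31 bases differed, and identity over the whole coding sequence was 67.5%.
Rpl22l1: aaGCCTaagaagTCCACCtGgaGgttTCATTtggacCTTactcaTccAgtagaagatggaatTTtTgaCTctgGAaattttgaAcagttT
Rpl22: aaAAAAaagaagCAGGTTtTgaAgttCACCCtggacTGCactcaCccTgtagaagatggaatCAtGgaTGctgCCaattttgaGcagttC
In none of these pairs did the 2 coding sequences share a stretch of 59 bases, as the longest shared stretch was 11 bases for Rps27l and Rps27, 35 for Rps4l and Rps4x and 26 for Rpl22l1 and Rpl22. A read that lies wholly within a coding sequence therefore has a difference between the pair within it. Processed copies elsewhere are another matter. The share of 59-base stretches of a member's transcript that the genome holds nowhere else ranged from 5.80% (Rpl10) to 100% (among others Rpl3l and Rpl39l), with a median of 56.6%, and 21 of the 85 members had at least 80%. In the pairs shown it was 80.2% for Rps27l and 37.6% for Rps27, and 91.4% for Rps4l and 23.6% for Rps4x. For Rpl22l1 it was 37.9% and for Rpl22 86.5%.

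Nearly the whole family was higher in hypHSCs. Of the 84 members tested (Rpl10l had no read in any library), 81 had a positive log2 fold change, and the median was 0.93, a fold of 1.91, against a median of -0.20 over all 14630 genes tested. The median of other genes varied with level. It was 0.20 at a mean of at least 4000 normalized counts, where 48 members had 0.92. From 1000 to 4000 it was -0.11, where 32 members had 1.01. DEGs are genes past a log2 fold change of 1 in size whose limma adjusted p reached 0.05. They made up 35 members that were higher, 41.7% of those tested, where 17.8% of all genes tested were called higher. Of the members, 1 was a DEG in the other direction, 1.19% against 21.7% of all genes. By adjusted p alone, 68 members were higher and 1 lower, and 15 were not called, where 22.2% of all genes were higher and 25.8% lower. In 60 members every hypHSC library lay above every qHSC library, and in 1 every hypHSC library lay below, while 17.6% of all genes tested stood apart in the first way and 22.0% in the second.

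**Figure D1:**
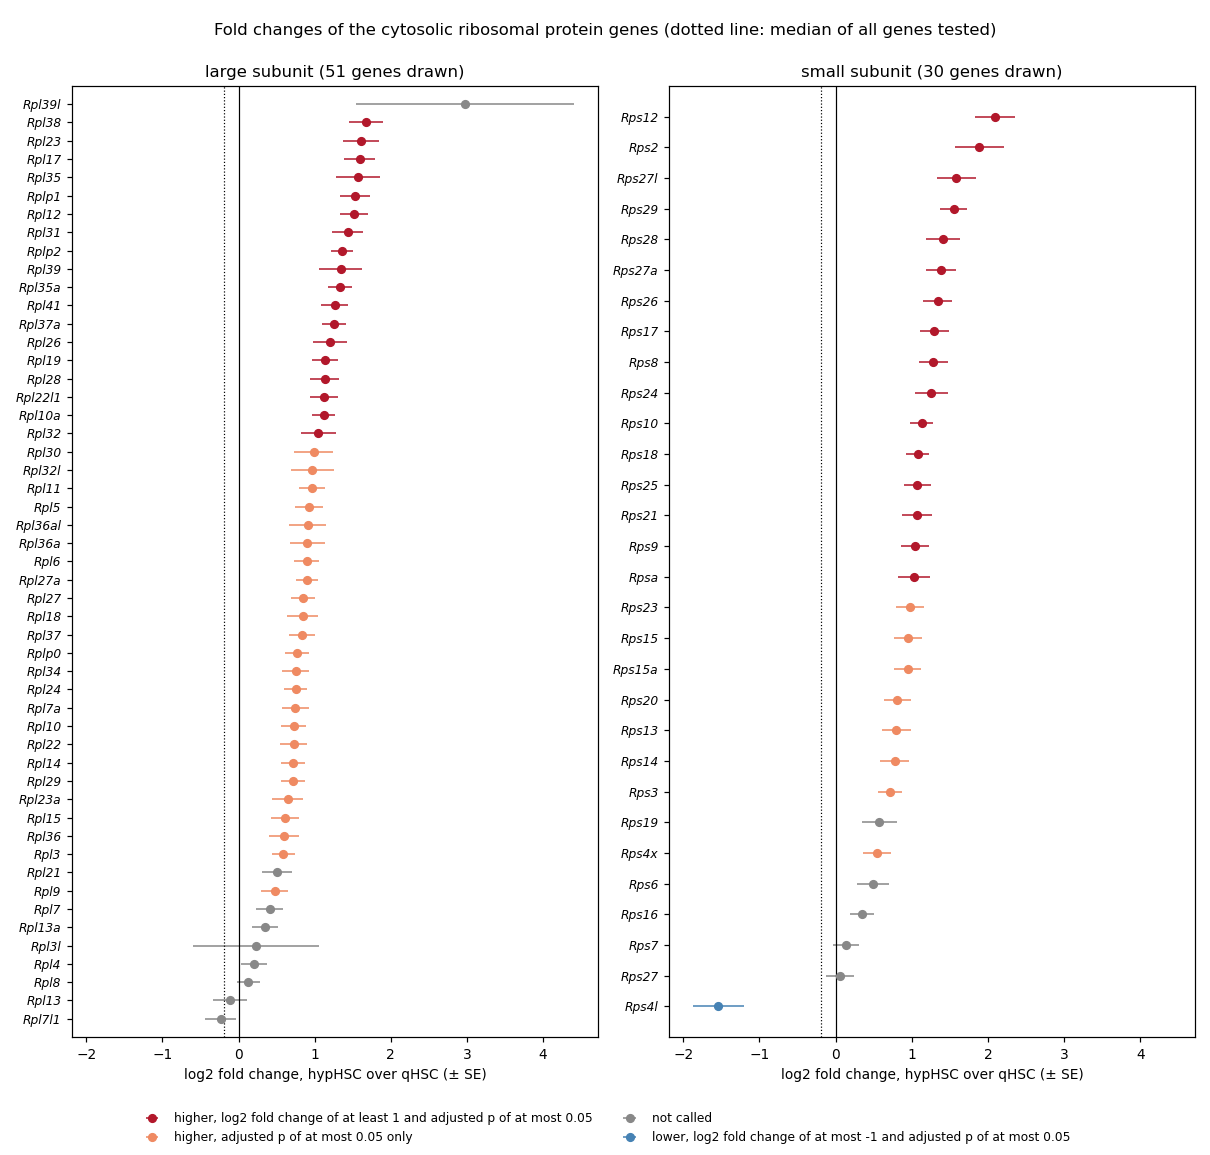
Log2 fold change of tested members, hypHSC over qHSC, with its standard error (bars), for 51 genes of the large and 30 of the small subunit, coloured by call, with 0 (solid line) and the median of all genes tested, -0.20 (dotted line). All but 3 members drawn lie right of 0, and Rps4l stands alone on the left at -1.54.

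Both subunits contributed. Of the 52 large subunit genes tested, 18 were DEGs and 24 more were higher by adjusted p alone, with a median log2 fold change of 0.90 and quartiles of 0.64 and 1.21. Of the 32 small subunit genes, 17 were DEGs and 9 more were higher by adjusted p alone, with a median of 1.03 and quartiles of 0.76 and 1.29. Reads on large subunit genes were 1.29 to 1.41 times those on small subunit genes in hypHSCs and 1.36 to 1.38 times in qHSCs, ranges that overlap.

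The size of the family's gain depends on how libraries are scaled. With libraries scaled to the same total the median log2 fold change of the members was 0.58, with the same upper quartile 1.04 and with TMM factors 0.99. Scaled on the reference genes Hprt, Pgk1 and Actb, however, it was -0.01, where the median of all genes fell to -1.12. With these reference genes 1 member was a DEG higher and 3 were DEGs lower, where 10.1% of all genes tested were DEGs higher and 47.8% lower. Under the deposited size factors, Hprt (1.25 ± 0.20 on the log2 scale, SE, adjusted p = 3.42e-04) and Pgk1 (1.44 ± 0.19, adjusted p = 8.94e-05) were themselves higher in hypHSCs by limma. Actb ranged from 18213 to 296496 normalized counts over the hypHSC libraries. These values depend on the size factors that the reference genes replace. The paper chose Hprt, Pgk1 and actin among its qPCR reference genes for their stability in sorted hypHSCs and qHSCs. Which scaling is nearer the truth was not tested. A scaling moves every gene of a library by the same factor, so the distance of 1.13 between the median of the members and that of all genes is fixed by construction, up to the pseudocount, and is no sign of stability. With the deposited size factors 82 of the 84 members lay above the median of all genes. Levels below are given with the deposited size factors, and a statement that a member was higher holds relative to them.

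**Figure D2:**
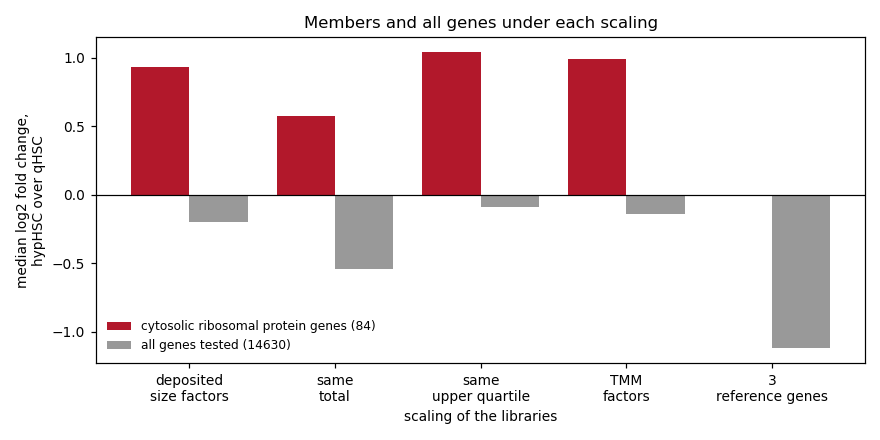
Median log2 fold change (hypHSC over qHSC) of the 84 tested members (red bars) and of all 14630 genes tested (grey bars) under the deposited size factors and 4 other scalings of the libraries. The members' median runs from -0.01 with the reference genes to 1.04 with the same upper quartile, and the gap between the bars of a pair is fixed by construction, since a scaling shifts all genes alike.

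The share of reads uses no size factor, but it depends on the reads that it is divided by, as the scaling to the same total does. Members took 2.59%, 2.01%, 1.76%, 1.92% and 2.01% of the reads on genes with a symbol in hypHSC 1 to 5 and 1.48%, 1.32%, 1.61%, 1.41% and 1.23% in qHSC 1 to 5. Every hypHSC library was above every qHSC library, and the mean share was 2.06% ± 0.31 (SD, n = 5) against 1.41% ± 0.15 (SD, n = 5), 1.46 times as large. The ratio of the mean shares was 1.32 over all entries, with and without a symbol. It was 1.59 when mitochondrial genes and the 10 most abundant genes were left out. HypHSC 1, with the most mitochondrial reads (12.8%), had the largest share, and hypHSC 3 (3.10% mitochondrial reads) the smallest of its group. The order was not the same throughout, as hypHSC 4, with the fewest mitochondrial reads of its group (2.21%), had a larger share than hypHSC 3. Among qHSCs the libraries with the most macrophage marker counts, qHSC 4 (125665) and qHSC 1 (54024), had shares of 1.41% and 1.48%, within the range of the 3 qHSC libraries with fewer (5757 to 11630). All these sums were far below the lowest of the hypHSCs, 1158726, and a relation between the markers and the share was not tested.

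Members differed in how far they stood from the qHSC mean. Against the qHSC mean of each gene, the median member stood at 1.32, 0.92, 0.57, 0.97 and 1.08 on the log2 scale in hypHSC 1 to 5, with interquartile ranges of 0.51 to 0.87, the widest in hypHSC 5. In qHSCs the same ranges were 0.13 to 0.17. The qHSC libraries form the mean that they are measured against, while the hypHSC ranges also hold the differences between genes in fold change. The ranges of the groups therefore cannot be compared as a spread between libraries. HypHSC 3 was nearest to the qHSCs, with 71 of 84 members above the qHSC mean, against 81 in each of the other hypHSC libraries.

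**Figure D3:**
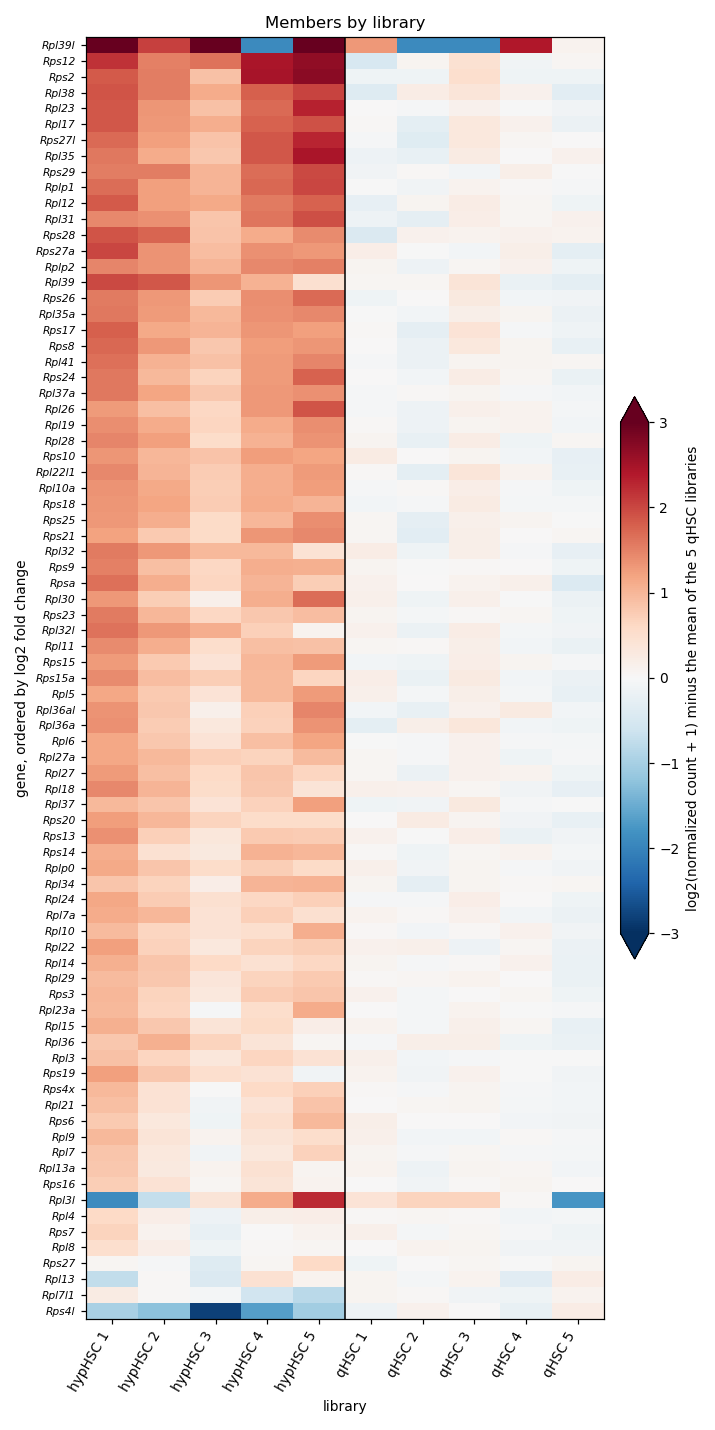
Log2(normalized count + 1) of 81 tested members in each of the 10 libraries, minus the mean of that gene over the 5 qHSC libraries (colour scale), with genes ordered by fold change. The hypHSC columns are red for most genes, palest in hypHSC 3, and the rows of Rpl13, Rpl7l1 and Rps4l at the bottom are not.

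Levels per length were compared as FPKM, from recovered reads and the length of 1 transcript per gene. They ranged over members from 0 to 2404 FPKM in hypHSCs (median 172) and from 0 to 1437 FPKM in qHSCs (median 119.9). The transcript used had 345 to 6111 bases over members (median 911), with 6111 for Rpl37 and 5136 for Rps15a. A longer transcript lowers the FPKM of a gene, so that levels and their order between genes depend on this choice. FPKM divide by the total of each library, so that differences between the groups are smaller than with the deposited size factors. Rpl32 had the highest level in both groups, 2404 ± 769.5 FPKM in hypHSCs and 1437 ± 261 FPKM in qHSCs (SD, n = 5). It was followed in hypHSCs by Rpl41, which encodes the shortest ribosomal protein, at 1587 ± 288 FPKM. Lower in the order stood Rps19, which is mutated in Diamond-Blackfan anaemia, at 1043 ± 388 FPKM. The distance between Rpl41 and Rps19 was larger than either SD. In qHSCs the next were Rps19 at 847 ± 107 FPKM, Rpl41 at 839 ± 75.8 FPKM and Rps6, the substrate of the S6 kinases, at 744 ± 84.1 FPKM. There Rps19 and Rpl41 differed by less than their SDs. Only 19.0% of the 59-base stretches of Rpl41 and 7.51% of those of Rps6 are found nowhere else, so that their levels are uncertain. For Rpl32 and Rps19 the share was 67.3% and 42.1%. Over the 80 members with at least 10 FPKM in both groups, the log2 levels of the 2 groups gave a Pearson r of 0.96 and a Spearman rho of 0.96, a description over genes that share libraries and lengths.

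**Figure D4:**
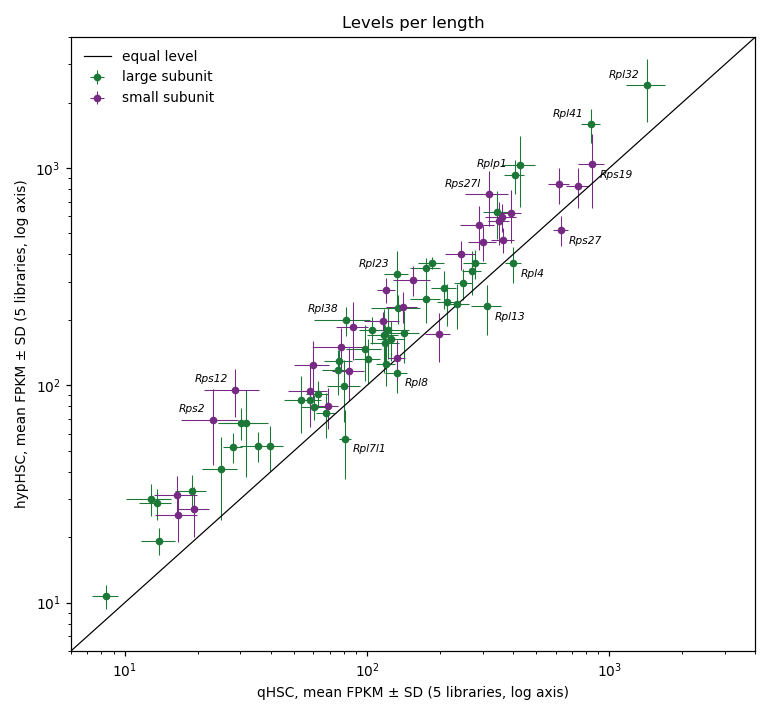
Mean FPKM of the members above the lowest levels in qHSCs (horizontal) and hypHSCs (vertical), both on log axes, with SDs over 5 libraries as bars and the line of equal level. Most points lie above the line along the whole range, Rps27l and Rps12 far above it, while 6 of the members drawn lie below it, among them Rps27, Rpl13, Rpl4, Rpl8 and Rpl7l1.

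In what follows, the values per library are normalized counts, and parentheses hold the log2 fold change ± SE and the limma adjusted p. Among the genes that rose most, Rps12, a protein of the head of the small subunit, was counted at 2079, 1335, 1444, 2554 and 2958 in hypHSC 1 to 5 and 334, 488, 633, 434 and 481 in qHSC 1 to 5. Every hypHSC library lay far above every qHSC library, and the log2 fold change was 2.09 ± 0.26 (SE, limma adjusted p = 7.21e-05). Only 9.76% of the 59-base stretches of its transcript are found nowhere else, so that its level is uncertain. Rps2, which lies where the mRNA enters the small subunit, was at 2598, 2114, 1335, 4067 and 4727 in hypHSC 1 to 5 and 669.8, 669.7, 1024, 666 and 668 in qHSC 1 to 5, a log2 fold change of 1.88 ± 0.32 with every hypHSC library above qHSC 3, the highest qHSC library. Normalized counts of Rpl38, known for its part in the translation of homeobox mRNAs, were 3328, 2605, 1949, 3107 and 3648 in hypHSC 1 to 5 and 685, 1045, 1149, 990.0 and 718 in qHSC 1 to 5 (1.67 ± 0.22, adjusted p = 1.04e-04). Those of Rps29, a small zinc-binding protein that is mutated in Diamond-Blackfan anaemia, were 4462, 4438, 3073, 4897 and 5991 in hypHSC 1 to 5 and 1413, 1559, 1435, 1721 and 1526 in qHSC 1 to 5 (1.55 ± 0.18, adjusted p = 4.30e-05). In both, the groups were separated by a wide gap. The share of 59-base stretches found nowhere else was also low for Rps2 (23.3%), Rpl38 (21.3%) and Rps29 (24.7%).

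Next among large subunit genes, Rpl23, which faces the small subunit and can bind the p53 regulator Mdm2, was at 17228, 11947, 8777, 15375 and 23389 in hypHSC 1 to 5 and 4833, 4648, 5197, 4720.0 and 4427 in qHSC 1 to 5, a log2 fold change of 1.61 ± 0.24 (adjusted p = 2.03e-04). Rpl35, at the mouth of the exit tunnel, was at 39589.8, 28582, 23195, 47520.0 and 72412 in hypHSC 1 to 5 and 11895, 11263, 15506, 13186 and 14365 in qHSC 1 to 5 (1.57 ± 0.28, adjusted p = 8.90e-04). HypHSC 5 was the highest library for both genes and hypHSC 3 the lowest of its group. Rpl17, which lines the exit tunnel, had 2285, 1566, 1353, 2166 and 2389.7 in hypHSC 1 to 5 and 644, 518, 787, 687 and 561 in qHSC 1 to 5 (1.59 ± 0.21, adjusted p = 9.84e-05), again without overlap.

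The P-stalk rose unevenly. Rplp1 was counted at 23109.8, 17034, 14737, 24068 and 29318 in hypHSC 1 to 5 and 7214, 6717, 7777, 7493 and 7129 in qHSC 1 to 5, with a log2 fold change of 1.53 ± 0.20 (adjusted p = 7.95e-05), and Rplp2 at 6981, 6498, 5137, 6885 and 7299 in hypHSC 1 to 5 and 2684, 2306, 2641, 2807 and 2341 in qHSC 1 to 5 (1.35 ± 0.14, adjusted p = 2.30e-05). Rplp0, their scaffold, was at 19737, 16183, 13231, 15038 and 13373 in hypHSC 1 to 5 and 9989, 8439, 9569, 8845 and 8366 in qHSC 1 to 5, a smaller log2 fold change of 0.77 ± 0.15 (adjusted p = 0.00183). All 3 genes had every hypHSC library above every qHSC library. Per length, Rplp1 stood at 2.56 to 5.32 times the level of Rplp0 in hypHSCs, highest in hypHSC 5, and at 1.75 to 2.07 times in qHSCs, and Rplp2 at 1.11 to 1.71 times against 0.842 to 0.994 times. Neither range overlaps between the groups, and as these ratios were chosen after the values were seen they were not tested. Rpl12, at the base of the stalk, had a log2 fold change of 1.51 ± 0.18 (adjusted p = 5.31e-05).

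Rpsa, which is known both as a late-binding protein of the small subunit and as the laminin receptor precursor, had 6355, 4304, 3135, 4108 and 3341 in hypHSC 1 to 5 and 2217, 2017, 2179, 2229 and 1517 in qHSC 1 to 5, a log2 fold change of 1.03 ± 0.21 (adjusted p = 0.0019). Rpl5 (0.92 ± 0.18, adjusted p = 0.0017) and Rpl11 (0.96 ± 0.17, adjusted p = 9.15e-04), which carry the 5S rRNA and bind Mdm2 when ribosome assembly fails, were higher by adjusted p, short of the DEG threshold. Rps27a, made as a fusion with ubiquitin, was a DEG (1.39 ± 0.20, adjusted p = 1.91e-04).

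Of the members with the smallest rises that passed the test, Rps3, at the mRNA entry channel, was counted at 21440.2, 17202, 13512, 18475 and 19175 in hypHSC 1 to 5 and 11781, 10345, 10906, 11347 and 9859 in qHSC 1 to 5 (0.71 ± 0.16, adjusted p = 0.00327), and Rpl3, near the peptidyl transferase centre, at 20277, 17309, 13928, 17259.8 and 14952 in hypHSC 1 to 5 and 12277, 10443, 10739, 10872 and 10916 in qHSC 1 to 5 (0.59 ± 0.15, adjusted p = 0.00692). Their groups did not overlap. Rpl15 had 18566, 15626, 11688, 13152 and 10114 in hypHSC 1 to 5 and 9569, 8474, 9811, 9172 and 7557 in qHSC 1 to 5 (0.61 ± 0.18, adjusted p = 0.0186), also without overlap. In Rpl23a, the docking site of nascent chain factors at the tunnel exit, hypHSC 3 fell inside the qHSC range, with 9809, 7821, 4837, 7213 and 10809.7 in hypHSC 1 to 5 and 5011, 4793, 5351, 4948 and 4855 in qHSC 1 to 5 (0.65 ± 0.21, adjusted p = 0.0234). Rpl36 had 3230.0, 3868, 2947, 2432 and 1919 in hypHSC 1 to 5 and 1803, 2093, 2080.1, 1692 and 1616 in qHSC 1 to 5 (0.60 ± 0.20, adjusted p = 0.0269), with hypHSC 5 inside the qHSC range. Rpl9 had 3212, 2151, 1751, 2132 and 2350.4 in hypHSC 1 to 5 and 1823, 1553, 1544, 1684 and 1589 in qHSC 1 to 5 (0.47 ± 0.17, adjusted p = 0.0413), with hypHSC 3 inside it. Each of these 6 genes, and Rps4x, had a negative log2 fold change, of -0.23 to -0.46, when libraries were scaled on the reference genes. The share of 59-base stretches found nowhere else was low for Rpl23a (6.32%), Rpl3 (9.18%) and Rpl9 (15.4%).

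Several of the family's long-known members were not called. Rpl4, Rpl8, Rps7, Rpl13 and Rps27 had log2 fold changes of 0.21, 0.13, 0.13, -0.11 and 0.06, with standard errors of 0.15 to 0.23. To show which members departed from the rest, libraries were also scaled on the median member, an alternative chosen after seeing the data. On that scale 22 members were higher in hypHSCs by adjusted p and 13 lower, 2 in each direction with a difference of at least 1. Of all genes tested, 11.9% were then higher and 50.6% lower by adjusted p, and 10.4% higher and 43.8% lower with a difference of at least 1. The 22 included Rps12 (1.25 ± 0.25, adjusted p = 0.00128), Rps2 (1.04 ± 0.27, adjusted p = 0.00633), Rplp1 (0.69 ± 0.16, adjusted p = 0.00298) and Rplp2 (0.51 ± 0.13, adjusted p = 0.00671), while Rplp0 was not called (-0.08 ± 0.15, adjusted p = 0.663). Among the 13 were Rpl4 (-0.64 ± 0.14, adjusted p = 0.00194), Rpl8 (-0.72 ± 0.14, adjusted p = 0.00118), Rps7 (-0.71 ± 0.14, adjusted p = 0.0013) and Rpl13 (-0.95 ± 0.25, adjusted p = 0.00592). For the 80 members with at least 10 FPKM in both groups, the log2 fold change had a Spearman rho of -0.19 with transcript length, -0.02 with GC content, 0.02 with the share of stretches found nowhere else and -0.23 with the qHSC level, as descriptions across genes.

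Short transcripts as a class were also somewhat higher in hypHSCs. Tested genes outside the family had a median log2 fold change of 0.28 below 500 bases and 0.25 from 500 to 1000 bases, where the members had 1.28 (12 genes) and 0.82 (36 genes). From 1000 to 2000 bases the other genes had a median of -0.14 and the 25 members 0.89. The medians were -0.27 and 1.13 (9 members) from 2000 to 4000 bases, and -0.26 and 0.89 (2 members) from 4000 bases. Length here is that of the 1 transcript used per gene for FPKM, so that the classes depend on that choice.

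The balance of paralogues was tested as the ratio of FPKM within a library, so that no scaling enters. Of 8 pairs, 5 had at least 10 reads for the minor gene in each library and were tested by exact two-sided permutation, adjusted over the 5 pairs. Rps27l, a paralogue of Rps27 that is a known target of p53, rose against its partner. It was counted at 17423, 12597, 9722, 19756 and 26431 in hypHSC 1 to 5 and 5263, 4232, 6750.3, 5619 and 5445 in qHSC 1 to 5 (1.58 ± 0.26, adjusted p = 4.50e-04), and Rps27, in a row it shares with the retrogene Rps27rt, at 11333, 10592, 8218, 11257 and 16259 in hypHSC 1 to 5 and 9848, 10897, 11319, 10682 and 11349 in qHSC 1 to 5 (0.06 ± 0.18, adjusted p = 0.807). The log2 ratio of Rps27l to Rps27 was 0.04, -0.33, -0.34, 0.23 and 0.12 in hypHSC 1 to 5 and -1.48, -1.94, -1.32, -1.51 and -1.64 in qHSC 1 to 5. The groups did not overlap, and the difference of 1.53 corresponds to a ratio 2.88 times as high (exact permutation p = 0.00794, the smallest that 5 against 5 can give, adjusted p = 0.0198). Per length of 1 transcript, where the ratios above use all exons of a gene, Rps27l made up 58.8% ± 4.4 of the pair in hypHSCs and 33.2% ± 3.5 in qHSCs (SD, n = 5).

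Rps4l moved the other way. This paralogue of the X-linked Rps4x was the only member called lower, at 438, 368, 123, 277 and 422 in hypHSC 1 to 5 and 785, 950.0, 868, 743 and 1015 in qHSC 1 to 5 (-1.54 ± 0.33, adjusted p = 0.0027). Rps4x was at 4417, 3015, 2225, 3398 and 3697 in hypHSC 1 to 5 and 2301, 2181, 2384, 2195 and 2127 in qHSC 1 to 5 (0.55 ± 0.18, adjusted p = 0.0282), with hypHSC 3 inside the qHSC range. The log2 ratio of Rps4l to Rps4x was -2.97, -2.67, -3.81, -3.25 and -2.76 in hypHSC 1 to 5 and -1.19, -0.83, -1.09, -1.20 and -0.70 in qHSC 1 to 5, a difference of -2.09 without overlap (exact permutation p = 0.00794, adjusted p = 0.0198). Its share of the pair was 6.52% ± 1.75 in hypHSCs and 22.4% ± 2.7 in qHSCs (SD, n = 5).

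**Figure D5:**
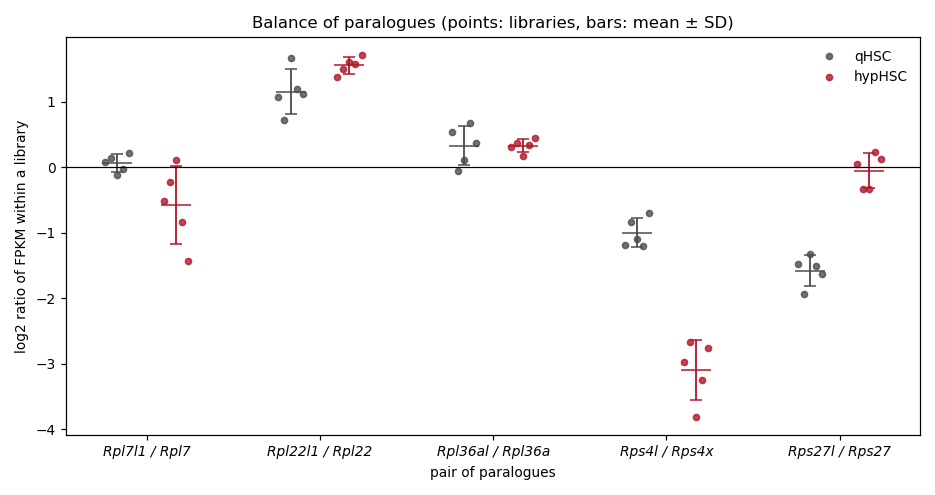
Log2 ratio of the FPKM of the minor to the main paralogue in each library (points) for 5 pairs, qHSC in grey and hypHSC in red, with the mean and SD (bars). The red and grey points are apart for Rps4l/Rps4x and Rps27l/Rps27 and overlap in the other 3 pairs.

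Smaller shifts were found in the next 2 pairs. Rpl22l1 was counted at 6508, 4865, 4025, 5103 and 5817 in hypHSC 1 to 5 and 2454, 1954, 3051, 2569.6 and 2045 in qHSC 1 to 5 (1.12 ± 0.18, adjusted p = 3.99e-04), and Rpl22, an RNA-binding protein that limits expression of Rpl22l1, at 4856, 3364, 2575, 3329 and 3462 in hypHSC 1 to 5 and 2260.0, 2307, 1873, 2176 and 1837 in qHSC 1 to 5 (0.73 ± 0.18, adjusted p = 0.00605). Their log2 ratio was higher in hypHSCs by 0.40, with qHSC 3 inside the hypHSC range (exact permutation p = 0.0397, adjusted p = 0.0496). Rpl7l1, known as a factor of large subunit assembly as well as a paralogue, was at 4181, 3604, 3409.5, 2355 and 2021 in hypHSC 1 to 5 and 3763, 3641, 3282, 3246 and 3776 in qHSC 1 to 5 (-0.23 ± 0.21, adjusted p = 0.372) and Rpl7 at 8046, 5670.1, 4225, 5670.4 and 7355 in hypHSC 1 to 5 and 4787, 4424, 4771, 4464 and 4342 in qHSC 1 to 5 (0.41 ± 0.18, adjusted p = 0.0835). The log2 ratio of Rpl7l1 to Rpl7 was 0.12 in hypHSC 3, inside the qHSC range of -0.11 to 0.22, and -0.23 to -1.44 in the other hypHSC libraries, a difference of -0.64 (exact permutation p = 0.0397, adjusted p = 0.0496). Leaving out 1 library ended the call for Rpl7l1 in every case but that of hypHSC 3, with adjusted p of 0.0595 to 0.0992, and for Rpl22l1 in every case but that of qHSC 3, with adjusted p of 0.0794 to 0.0992. Without hypHSC 3 or qHSC 3, in turn, the adjusted p was 0.0265.

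Rpl36al and Rpl36a, which encode nearly the same protein, did not differ detectably in balance. Rpl36al was at 10393, 7145, 4537, 6685 and 11224 in hypHSC 1 to 5 and 3807, 3497, 4436, 4869.7 and 3811 in qHSC 1 to 5 (0.91 ± 0.24, adjusted p = 0.00928) and Rpl36a at 4945, 3268, 2387, 3108 and 4889.9 in hypHSC 1 to 5 and 1557, 2148, 2435, 1808 and 1737 in qHSC 1 to 5 (0.90 ± 0.23, adjusted p = 0.007). Their log2 ratio averaged 0.33 ± 0.10 in hypHSCs and 0.33 ± 0.30 in qHSCs (SD, n = 5), a difference of 0.00 (exact permutation p = 0.984). Only 7.46% of the 59-base stretches of Rpl36a are found nowhere else.

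The paralogues known from single tissues were low, with libraries at or under the floor of 3 reads, which is 2.25 to 4.54 normalized counts per library. Rpl10l, known from testis, had 0 reads in all 10 libraries, while its partner Rpl10, which joins the large subunit last, was at 14196, 11346, 9825, 10384 and 15636 in hypHSC 1 to 5 and 7433, 6868, 7499, 8018 and 6729 in qHSC 1 to 5 (0.73 ± 0.16, adjusted p = 0.00377). Rpl3l, known from striated muscle, was at 2.7, 7.25, 16.6, 28.3 and 63.5 in hypHSC 1 to 5 and 17.2, 20.4, 20.5, 12.8 and 3 in qHSC 1 to 5 (0.23 ± 0.83, adjusted p = 0.839). Rpl39l, another testis gene, was at 144, 14.5, 56.5, 0 and 166 in hypHSC 1 to 5 and 8.15, 0, 0, 18.8 and 3 in qHSC 1 to 5, with the largest fitted log2 fold change of the family (2.97 ± 1.43) but a spread that left it uncalled (adjusted p = 0.108). Rpl39, a small protein within the exit tunnel, was at 7095, 6517, 4452, 3706 and 2476 in hypHSC 1 to 5 and 1855, 1870.2, 2316, 1553 and 1453 in qHSC 1 to 5 (1.34 ± 0.28, adjusted p = 0.00223). Rpl32l, which GENCODE lists as a transcribed processed pseudogene and whose exons all lie within those of other genes, was higher by adjusted p (0.97 ± 0.28, adjusted p = 0.0143), with overlapping groups.

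Ribosomal components whose symbols fall outside the rule were also higher by adjusted p, among them Rack1, Fau and Rps3a1. Rack1, the kinase scaffold on the small subunit, was at 11548, 8218, 6904, 11425 and 14166 in hypHSC 1 to 5 and 3838, 4043, 4833, 4264 and 4227 in qHSC 1 to 5 (1.26 ± 0.20, adjusted p = 3.74e-04), and Fau, a fusion of a ubiquitin-like protein with a small subunit protein, at 9745, 6707, 5717, 7509 and 10309 in hypHSC 1 to 5 and 4035, 3398, 3555, 4007 and 3865 in qHSC 1 to 5 (1.05 ± 0.18, adjusted p = 6.67e-04). In Rps3a1, at 14658, 9640.3, 7032, 10256 and 13669.8 in hypHSC 1 to 5 and 7402, 6258, 6559.8, 5926 and 5994 in qHSC 1 to 5 (0.74 ± 0.20, adjusted p = 0.0114), hypHSC 3 fell inside the qHSC range. The 9 rows named as processed copies of members had log2 fold changes of 0.53 to 1.45. Of these rows 8 passed an adjusted p of 0.05, where 22.2% of all genes tested were higher. Reads of a member can fit its copies, so that these rows may not be separate from the members.

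The ribosomes of mitochondria are built from other genes. Of 78 mitochondrial ribosomal protein genes, 24 were higher by adjusted p, 8 of them DEGs, 1 was lower and 53 were not called, with a median log2 fold change of 0.40. Of all genes tested, 22.2% were higher by adjusted p, 17.8% were DEGs higher and 25.8% were lower by adjusted p. The largest fold changes were those of Mrps24 (1.77 ± 0.62, adjusted p = 0.0351), Mrpl33 (1.51 ± 0.34, adjusted p = 0.00339) and Mrps30 (1.45 ± 0.47, adjusted p = 0.0242). The smallest, which did not pass, were Mrps27 (-0.69), Mrpl10 (-0.75) and Mrpl9 (-1.11), all with hypHSC 5 as the lowest library. They took 0.435% to 0.771% of reads in hypHSCs and 0.432% to 0.521% in qHSCs, and leaving out 1 library moved the DEGs among them that were higher to between 4 (without hypHSC 5) and 17 (without hypHSC 3).

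Translation factors changed in part. Of 37 initiation factors, 12 were higher by adjusted p and 3 lower, where 22.2% and 25.8% of all genes tested were, with a median of 0.33. Eif5b, which joins the subunits (1.83 ± 0.48, adjusted p = 0.00874), Eif3f, a subunit of the factor that binds the small subunit (1.71 ± 0.27, adjusted p = 4.01e-04), and Pabpc1, the poly(A)-binding protein (1.56 ± 0.27, adjusted p = 6.51e-04), had the largest rises. The helicase Eif4a2 fell by 1.44 on the log2 scale (adjusted p = 6.81e-06), from 15622, 16242, 12568, 15072 and 15187 in qHSC 1 to 5 to 5734, 5314, 5245, 5508 and 5596 in hypHSC 1 to 5, and the scaffold Eif4g3 was lower too (-0.94 ± 0.14, adjusted p = 2.01e-04), while Eif4g2 did not pass (-0.66, adjusted p = 0.0514). Of the 9 elongation and termination factors, only Eef1b2, an exchange factor for eEF1A, was higher (0.92 ± 0.22, adjusted p = 0.00491) and only Abce1, which splits ribosomes, was lower (-0.36 ± 0.13, adjusted p = 0.0422). Eef1a1 and Eef2, whose mRNAs are also of the pyrimidine-tract class, were not called (0.33 and 0.05). For Eef2, hypHSC 1 to 5 had 35138, 29437, 22979, 16001 and 8411 normalized counts, a range that takes in all qHSC libraries. Gspt1 and Etf1, which act in termination, had log2 fold changes of 0.60 and 0.55 and did not pass either, nor did Eef1d (0.10).

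Of 55 ribosome biogenesis factors, 13 were higher by adjusted p, a share near the 22.2% of all genes tested, and 3 were lower, where 25.8% of all genes were, with a median log2 fold change of 0.20. Nhp2, of the box H/ACA pseudouridylation complex (2.07 ± 0.28, adjusted p = 1.23e-04), Zfp622, which acts late in large subunit maturation (1.52 ± 0.56, adjusted p = 0.0423), and Rpf2, which loads the 5S rRNA complex (1.51 ± 0.21, adjusted p = 1.42e-04), were highest. Sbds, which helps to release the anti-association factor Eif6 from new large subunits, was lower in every hypHSC library, at 3093, 2953, 2650.3, 4271 and 6251 in hypHSC 1 to 5 and 7924, 8781, 8036, 9184 and 9604 in qHSC 1 to 5 (-1.25 ± 0.23, adjusted p = 9.05e-04), as was Surf6 (-1.11 ± 0.39, adjusted p = 0.0337). Nob1, the nuclease that finishes 18S rRNA, did not pass (-0.97, adjusted p = 0.104).

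Of 30 mTOR and growth regulators, 8 were higher and 8 lower by adjusted p, shares near the 22.2% and 25.8% of all genes tested, with a median of -0.04. Lamtor4 (1.98 ± 0.23, adjusted p = 4.80e-05) and Rragc (1.87 ± 0.22, adjusted p = 5.32e-05), which hold mTOR complex 1 at the lysosome, and Sesn1, an inhibitor of that complex (1.56 ± 0.17, adjusted p = 2.40e-05), had the largest rises. Rragd, a relative of Rragc, was lower, at 41.8, 60, 17.5, 49.3 and 59 in hypHSC 1 to 5 and 159, 182, 168, 175 and 167 in qHSC 1 to 5 (-2.00 ± 0.38, adjusted p = 0.00133). Castor1, the arginine sensor, was at 47.2, 55.9, 34.1, 8.39 and 0 in hypHSC 1 to 5 and 251, 236, 194, 119.8 and 172 in qHSC 1 to 5, and Mycn at 9.43, 0, 0, 0 and 0 in hypHSC 1 to 5 and 59.7, 38.3, 52.8, 21.4 and 23.2 in qHSC 1 to 5, both called lower (adjusted p = 0.0106 and 6.85e-04).

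The start sites of the members were searched for short letters that are known from ribosomal protein genes, in 300 bases around the start of the Ensembl canonical transcript (250 before, 50 after), on both strands. CCGGAAG, the core of ETS factor sites, was found in 29.8% of the 84 members and 14.2% of the 14233 tested genes with an annotated start, TATAAA in 14.3% and 9.06%, GGGCGG in 51.2% and 53.6%, and AAGATGGC, which YY1 can bind, in 3.57% and 3.24%. A run of at least 7 C and T that begins with C and starts from 10 bases before to 30 bases after the annotated first base was found in 42.9% and 20.4%, on the sense strand. A C at the annotated first base followed by at least 4 further C or T was found in 7 of the 84 members (8.33%) and 570 of the 14233 genes. Members with and without the longer run had median log2 fold changes of 0.92 and 0.97, those with and without the C and pyrimidines at the first base, 1.26 and 0.92, and those with and without CCGGAAG 1.07 and 0.90. Annotated starts can differ from those used in these cells, so that these shares describe the windows only.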

How the data were processed

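Of 10 libraries (oligo-dT priming with template switching, no strand information), the authors aligned reads of 59 bases in pairs with STAR 2.7.5a to mm39, counted them with featureCounts of Subread 1.5.0 on FAST DB v2022_1 and divided them by DESeq2 size factors. The deposited values are thus a normalized signal, normalized counts per gene, which are whole multiples of the value of 1 read in every library (100% of values), so that reads were recovered. The members, the lists and the tests were chosen with earlier results of these data known. The columns of the authors' own comparison were not used.

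The test covered each gene that carries a symbol and reaches 10 normalized counts in 5 or more libraries, and was run with limma 3.58.1 (R 4.3.3) on log2(normalized count + 1), with a trended prior and Benjamini-Hochberg adjustment over 14630 genes. The pseudocount understates changes of low genes. FPKM were computed from recovered reads and 1 transcript of GENCODE vM39 (GRCm39) per gene, the shortest with a consensus coding sequence. Paralogue ratios used the summed exon length, which leaves group differences unchanged. Exact permutation tests of them were two-sided. The named members are the 8 with the largest and the 8 with the smallest changes among those called, the paralogue pairs, the stalk, Rpsa, the components outside the rule and the scaling genes, and of each list the 3 at either end. Others were named after their values were seen. Some genes of the family and lists are counted but not reported here by name. Alternatives were edgeR 4.0.16 and DESeq2 1.42.0 on recovered reads, other scalings, pseudocounts and filters, a correction for GC content, a replicate block, hypHSCs of 12 weeks only and each library left out. Scaling on the family median was added after seeing the data. The floor of 3 reads covers counting error only.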

Additional observations from a re-analysis of the deposited data

Results flagged for a closer look

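In 82 groups of 5 libraries checked for a library far from the rest, 2 were found, where chance gives about 1 in 20. Rps2 in qHSC 3 was 1024.28 normalized counts, when the other qHSC libraries had 665.72 to 669.76. Rpl3 in qHSC 1 was 12277.5 normalized counts, when the others had 10442.6 to 10915.6.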

How the results depend on the processing

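With other pseudocounts and filters, TMM factors, the same upper quartile, edgeR, DESeq2, entries without a symbol and hypHSCs of 12 weeks only, members that were DEGs higher in hypHSCs numbered 28 to 47, against 35, with 1 lower in each. Leaving out 1 library gave 32 to 44, and 64 to 72 by adjusted p alone. A correction for GC content gave 54. Among the 21 members with at least 80% of 59-base stretches found nowhere else, 6 were DEGs and 14 higher by adjusted p. With the same total, 13 of the 84 members were DEGs higher, where 13.8% of all genes tested were DEGs higher and 28.9% lower. By adjusted p alone 50 members were higher, where 16.7% of all genes were, and the median of the members was 0.58. With that scaling 10 genes of the translation lists (components, factors, regulators and mitochondrial ribosomal proteins) were DEGs higher and 19 lower, against 28 and 9. Leaving out 1 library gave 17 (without hypHSC 5) to 39 higher and 6 to 10 lower in these lists. Scaled on the family median, 2 were DEGs higher and 2 lower, 22 and 13 by adjusted p, with a median of 0.090.

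Scaled on the 3 reference genes, 1 member was higher by either rule, 3 were DEGs lower and 10 were lower by adjusted p, with a median of -0.0054. Of all genes tested, 10.1% were then DEGs higher and 47.8% lower, and 10.7% were higher and 52.5% lower by adjusted p. In the translation lists 2 genes were higher and 59 lower. The sign turned for Rps3 (-0.23), Rpl23a (-0.29), Rpl15 (-0.33), Rpl36 (-0.34), Rpl3 (-0.35), Rps4x (-0.39), Rpl9 (-0.46), Rpl36al (-0.034), Rpl36a (-0.035), Rpl10 (-0.21), Rpl22 (-0.21), Rps27 (-0.88), Rplp0 (-0.17) and Rps3a1 (-0.20). Pgk1 and Hprt were higher in hypHSCs under the deposited size factors, and the construction of this scaling lowers the other genes accordingly.

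Paralogue log2 differences with 1 library left out were -0.82 to -0.43 for Rpl7l1, 0.29 to 0.52 for Rpl22l1, -2.20 to -1.91 for Rps4l, 1.43 to 1.60 for Rps27l and -0.09 to 0.09 for Rpl36al. With hypHSCs of 12 weeks only they were -0.78, 0.47, -2.27 and 1.59 for the first 4, with exact permutation adjusted p of 0.179, 0.179, 0.0893 and 0.0893, where 3 against 5 libraries cannot go below 0.0357 before adjustment. Libraries of the 2 groups share only a number. Deviations from the group means of same-numbered libraries had correlations of 0.00815 to 0.129, and 1 of 5 correlated best with its own number. With the number as a replicate block, 35 members were DEGs and 66 higher by adjusted p, and the paralogue differences of -0.64, 0.40, -2.09 and 1.53 had an exact permutation adjusted p of 0.156, where the smallest possible p was 0.0625.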
